A study of Homo sapiens with 6 samples.

Results

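The 56 genes described here encode ribosome biogenesis factors, the proteins that transcribe, modify, cut and assemble ribosomal RNA. The rule lists them by their known roles and uses no measured value, although earlier results of these data were known when the list was made. They were matched by gene symbol to the 60612 Ensembl genes of each table. All 56 were found, and all 56 passed the filter on low values, a mean of at least 1 FPKM (fragments scaled to transcript length and library size) over the 6 libraries.

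RNA sequencing was used to ask which transcripts change when SNORA28, an H/ACA-type small nucleolar RNA, is overexpressed in HCT116 cells, a widely used human line derived from a colorectal carcinoma. Poly(A)-selected RNA was sequenced from cells infected with the negative control lentivirus, LV-NC (n = 3), and from cells infected with LV-SNORA28 (n = 3), a lentivirus of the GV235 vector carrying SNORA28. All 6 libraries thus came from lentivirus-infected cells, and no uninfected culture was analysed here. Nothing in the labels says that the libraries of a group came from separate cultures, so the p-values measure the spread between these libraries, which may be technical.

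Ribosome production starts in the nucleolus, where RNA polymerase I transcribes the ribosomal DNA into a long precursor. Box C/D small nucleolar ribonucleoproteins methylate the precursor and box H/ACA particles convert selected uridines to pseudouridine. The small-subunit (SSU) processome folds the 5′ part of the precursor and releases the pre-40S particle, while a separate set of factors builds the pre-60S particle. Production is usually high in colorectal carcinoma cells, and many of the factors respond to growth signals. The libraries held the mRNAs of these factors. Ribosomal RNA, its modification and the proteins were not measured.

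SNORA28 checked the labels. Its LV-NC values were 0.92, 0 and 0.64 FPKM and its LV-SNORA28 values 15.01, 13.66 and 15.2 FPKM. The 6 epithelial marker genes were between 9.65 and 411.55 FPKM in every library, and 7 of 8 markers of other cell types stayed below 1 FPKM in all of them (COL1A1 was between 3.16 and 4.46 FPKM). The FPKM sum of a library ran from 334707 to 374676 in LV-NC and from 306048 to 320362 in LV-SNORA28, and mitochondrially encoded transcripts took 42.7% to 47.7% and 35.9% to 38.3% of it, without overlap. As FPKM divides by the mapped total, a smaller mitochondrial share goes with higher values for other genes, and the part of this shift in the differences below was examined only through the scalings named with them. In bulk RNA, fewer cells that express a gene and less RNA per cell cannot be told apart. Read depth was unknown, so no counting interval is attached to any value.

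As a class, the factors were abundant and moved little. Their median level was 17.6 FPKM, against 5.26 FPKM over all 12076 genes tested, and single members ranged from 3.93 FPKM (UTP20) to 311.5 FPKM (NPM1). In limma on log2(FPKM + 1), with Benjamini-Hochberg adjustment over all genes tested, 4 of 56 members (7.14%) had an adjusted p below 0.05, against a background of 8.91% of all genes. NOL11 rose, and RRS1, RRP9 and UBTF fell. The 1 member called higher is 1.79% of the members, against 6.81% of all genes called higher, and the 3 called lower are 5.36%, against 2.10%. The calls depended on the libraries, as did those of all genes, of which 1076 were called with all 6 libraries. Without LV-NC replicate 1, 3 members and 628 genes were called. Without LV-NC replicate 2 or 3 it was 1 member each, with 488 and 447 genes. Without LV-SNORA28 replicate 1 it was 1 member, with 446 genes. Without LV-SNORA28 replicate 2 or 3 it was 0 members, with 279 and 290 genes. No called member changed sign in any of the 15 alternatives. The order of the shares depended on the scaling. With quantile normalization 7 members and 826 genes were called, and with equal library medians 5 and 718. With GC and length trends removed 5 members and 954 genes were called. In these settings the share of the members lay above that of all genes. With nuclear FPKM sums set equal, 4 members and 879 genes were called, and the share lay just below.

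Other criteria in this fit also gave shares somewhat below the background, and the differences were not tested. An unadjusted p below 0.05 was reached by 13 members (23.2%), 7 higher and 6 lower, against 28.0% of all genes. The 3 values of each group did not overlap in 16 members (28.6%), 7 higher and 9 lower, against 35.1% of all genes. A fold change above 1.5 on the log2(FPKM + 1) scale was also required together with an unadjusted p below 0.05. NOL11 was then the 1 member called (1.79%), against 3.79% of all genes. The study states the same cut-offs, but not whether its p was adjusted or how its fold was taken.

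The median log2 fold change (LV-SNORA28 minus LV-NC) of the members was -0.01, against 0.09 over all genes tested. Of the 56 members, 26 had a positive and 30 a negative fold change, and 39 lay below the median of all genes. The 95% interval of the fold change lay inside 1.5-fold in both directions in 51 members (91.1%), against 75% of all genes. Larger differences thus lay outside the intervals of those members. The sets were not matched for level, and the members were the more abundant. The 5 with wider or shifted intervals were NOL11, UBTF, NOLC1, NIP7 and PPAN. Setting the medians of the libraries to a common level lowered both medians together, to -0.112 for the members and -0.01 for all genes. Without LV-NC replicate 3 the median of the members was 0.0327, against 0.09 for all genes, and without LV-SNORA28 replicate 1 it was 0.00289, so its sign depended on the libraries included.

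**Figure D1:**
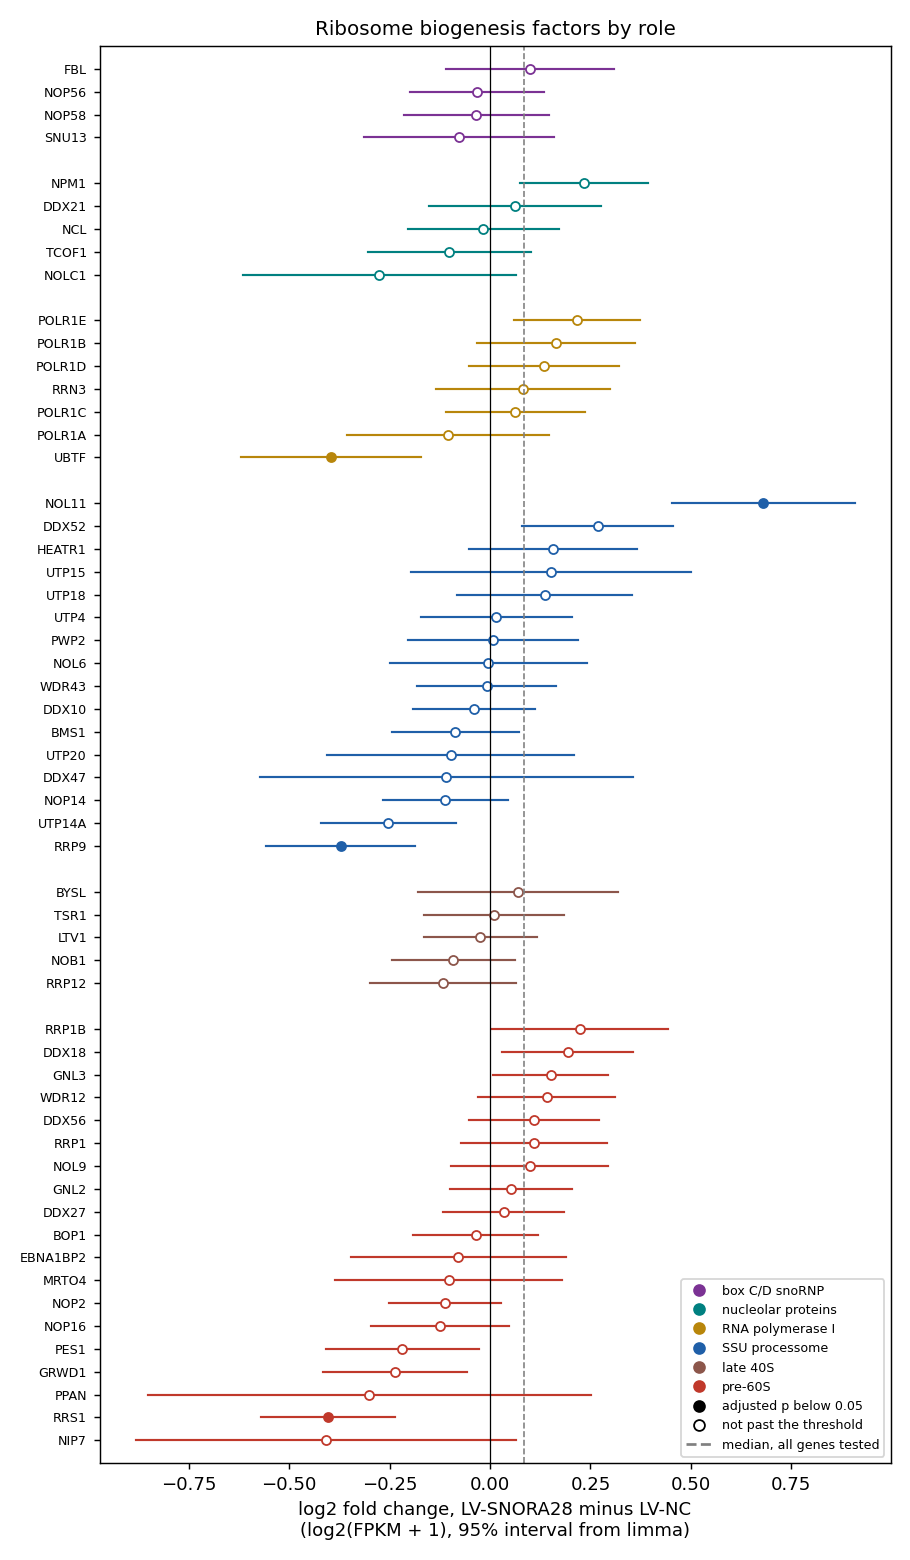
Log2 fold change, LV-SNORA28 minus LV-NC, on the log2(FPKM + 1) scale (x axis) for the 56 members (y axis), grouped and coloured by role; bars are 95% intervals from limma, filled points have an adjusted p below 0.05, and the dashed line is the median of all genes tested. Most intervals cross 0, and NOL11 (0.68) lies to the right of every other member, followed by DDX52 (0.27).

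**Figure D2:**
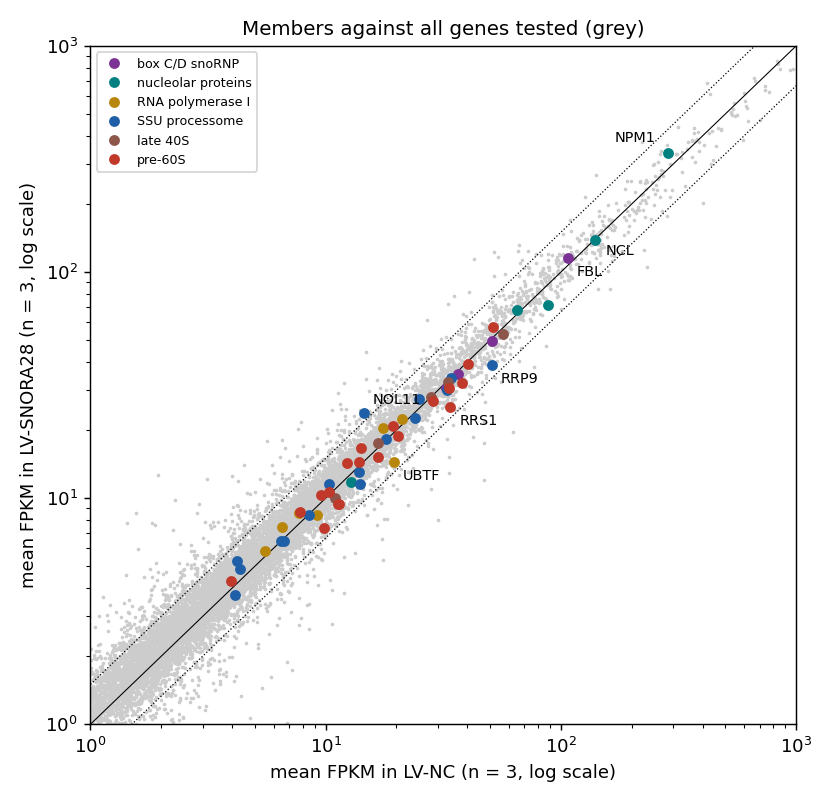
Mean FPKM in LV-NC (x axis) against mean FPKM in LV-SNORA28 (y axis), both on log scales and over 3 libraries, for the members (coloured by role) and all genes tested with values above 0 in both groups (grey); the solid line marks equal values and the dotted lines a 1.5-fold difference. All members except NOL11 lie between the dotted lines.

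Summed over the class, the groups differed by less than the spread of the libraries. The members added up to 1708 ± 103 FPKM (SD, n = 3) for LV-NC and 1724 ± 35.2 FPKM (SD, n = 3) for LV-SNORA28, a ratio of 1.01. Abundant members weigh most in these sums. NPM1 alone had means of 286.4 and 336.7 FPKM, a larger rise than that of the sums. The remaining members together were thus lower in LV-SNORA28. As a share of the FPKM of nuclear genes, which leaves out the mitochondrial transcripts, the sums were 0.881% ± 0.0452 and 0.873% ± 0.014. The lowest and the highest of the 6 sums were both LV-NC libraries, replicate 1 with 1597 FPKM and replicate 3 with 1801 FPKM.

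Inside LV-NC the members were spread unlike all genes tested. LV-NC replicate 3 held the highest of the 3 LV-NC values in 44 of the 56 members (78.6%), whereas it held the highest value in 32.8% of all genes tested. LV-NC replicate 1 held the lowest value in 33 members (58.9%), against 28.7% of all genes. MYC, a transcription factor that drives ribosome production and is itself no member, stood apart in the same library: its LV-NC values were 5.39, 4.98 and 42.37 FPKM and its LV-SNORA28 values 5.04, 5.59 and 5.29 FPKM. It was picked here after its values were seen, and its part in the members' pattern was not tested. In the log2 values, the median deviation of the members from their LV-NC mean was 0.0861 in replicate 3, -0.0226 in replicate 2 and -0.0698 in replicate 1. In LV-SNORA28 the medians kept the same order but were closer together, from -0.0269 in replicate 1 to 0.0355 in replicate 3. Replicate 2 lay between them at -0.0034. LV-SNORA28 replicate 3 held the highest value of its group in 31 members (55.4%), against 40.8% of all genes tested. LV-SNORA28 replicate 1 held the lowest in 28 members (50%), against 36.9%. The median coefficient of variation of the members was 7.48% in LV-NC and 4.38% in LV-SNORA28, against 10.1% and 8.10% over all genes tested. Here too the sets were not matched for level.

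**Figure D3:**
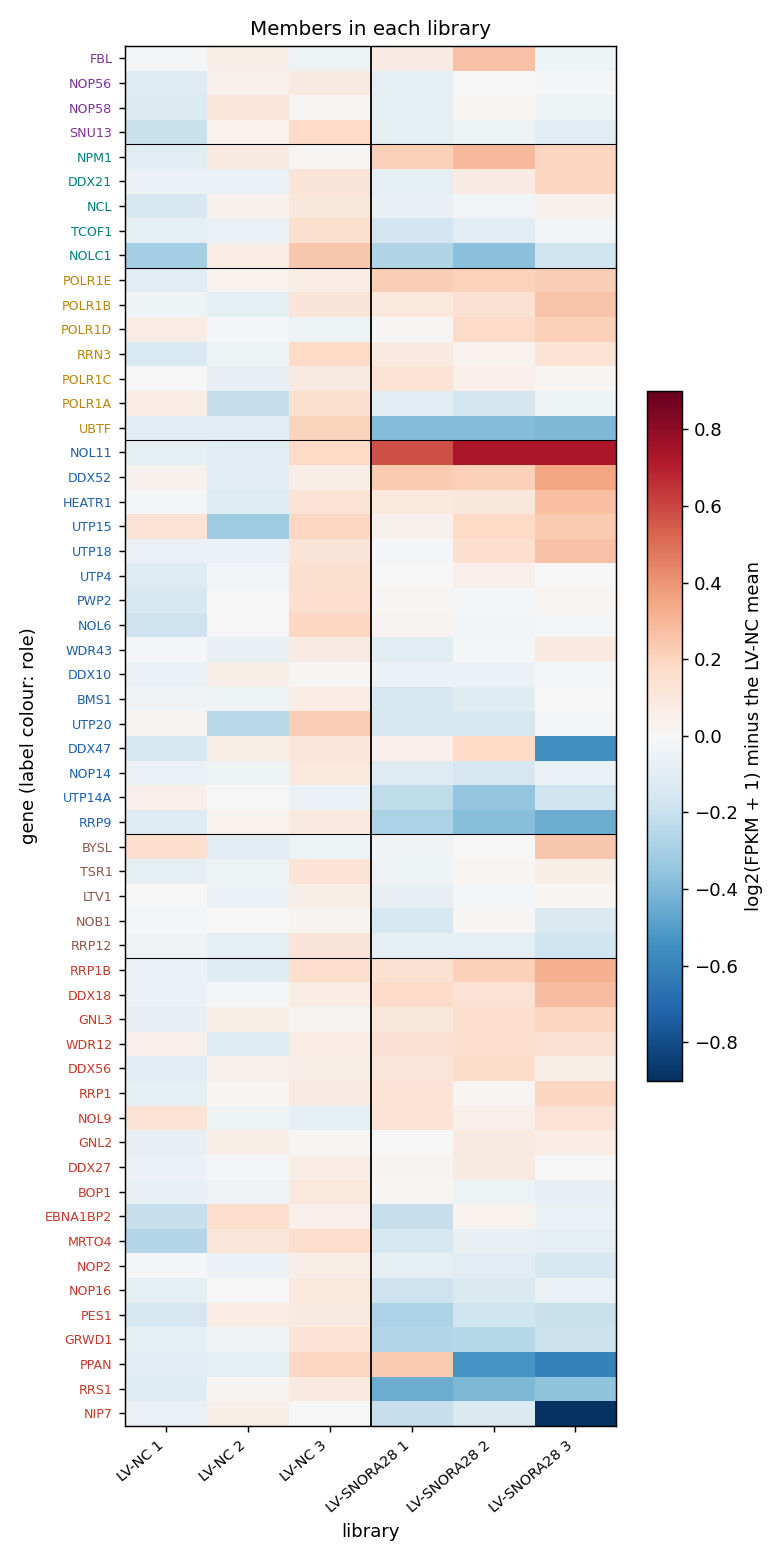
Deviation of each member (rows, grouped by role) from its LV-NC mean in each of the 6 libraries (columns), in log2(FPKM + 1) units, red for higher and blue for lower. LV-NC replicate 3 is on the red side for most members, NOL11 is red in all 3 LV-SNORA28 libraries, and RRS1, RRP9 and UBTF are blue in all 3.

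Promoter sequence, which the choice of members did not use, was compared by motif counts without a test of enrichment. Promoter sequences of RefSeq (build GRCh38.p14, 250 bases before to 50 bases after the start) were found for 45 of the 56 members. The called member RRS1 was not among them, so its promoter was not examined. The palindrome CACGTG, the E-box bound by several basic helix-loop-helix factors, was searched on both strands, which for a palindrome are the same match. It was present in 17 of 45 member promoters (37.8%), in 7.43% of all 27305 promoters and in 10.5% of the 8814 promoters of genes tested. CCGGAAG, an ETS-type motif, was found in 40% of member promoters on either strand, against 10.7% of all and 20.9% of those tested. GGGCGG was found in 73.3% of member promoters, against 44.6% and 73.1%, and CCAAT in 35.6%, against 35.7% and 37.0%. A match describes the letters of the window and is not evidence of binding. The E-box window of the called member that holds one, RRP9, is shown with those of FBL, UTP18 and GNL2 as examples, with the motif in capitals:

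RRP9 (chr3:51941884-51941929, minus strand, motif beginning 5 bases before the start): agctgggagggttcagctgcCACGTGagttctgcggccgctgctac
FBL (chr19:39846355-39846393, minus strand, motif beginning at base 7 of the transcript): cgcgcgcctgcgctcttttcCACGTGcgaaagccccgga
UTP18 (chr17:51260530-51260570, plus strand, motif beginning at base 5 of the transcript): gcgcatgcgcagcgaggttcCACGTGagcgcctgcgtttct
GNL2 (chr1:37595913-37595954, minus strand, motif beginning at base 4 of the transcript): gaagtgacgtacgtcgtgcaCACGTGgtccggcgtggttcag

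UTP18 holds a second E-box further upstream. The promoters of NOL11 and UBTF, the called members of opposite sign on chromosome 17, hold no E-box, and the 100 bases directly before each RefSeq start are shown for comparison, without capitals:

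NOL11 (chr17:67717836-67717935, plus strand): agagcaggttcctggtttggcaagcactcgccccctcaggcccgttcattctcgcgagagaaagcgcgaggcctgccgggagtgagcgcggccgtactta
UBTF (chr17:44220883-44220982, minus strand): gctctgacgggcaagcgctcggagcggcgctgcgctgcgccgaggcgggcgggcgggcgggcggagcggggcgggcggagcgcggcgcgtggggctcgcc

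Fold changes were then set beside the motif. The 17 members with the E-box had a median log2 fold change of -0.02, with a range from -0.37 to 0.14, and 1 of them, RRP9, was called lower. The 28 without it had a median of 0.05, with a range from -0.41 to 0.68, and held 1 gene called higher (NOL11) and 1 called lower (UBTF). The difference between these 2 sets was not tested.

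RNA polymerase I and its factors come first in the pathway. UBTF (ENSG00000108312; GRCh38 chromosome 17, 44205033 to 44221626, minus strand), an HMG-box protein that coats active ribosomal DNA and helps to recruit the polymerase, had LV-NC values of 18.06, 17.93 and 22.38 FPKM and LV-SNORA28 values of 14.54, 14.53 and 14.35 FPKM. All LV-SNORA28 values lay below all LV-NC values, with an SD of 0.107 FPKM. UBTF fell by 0.40 on the log2 scale (SE 0.09, limma adjusted p = 0.0499), just inside the threshold. It was not past the threshold when any 1 of the 6 libraries was left out, with adjusted p-values from 0.0643 to 0.144, nor with the replicate block (0.0838), and over all alternatives the limma adjusted p ran from 0.0297 to 0.144. Without LV-NC replicate 3, its highest value, the log2 fold change was -0.30.

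No other member of the polymerase group was called, which makes 1 of 7 (14.3%), against 8.91% of all genes. Of the remaining 6, 5 had a positive fold change. POLR1E, the PAF53 subunit that links the polymerase to its initiation factors, had LV-NC values of 16.25, 17.96 and 18.45 FPKM and LV-SNORA28 values of 20.56, 20.43 and 20.61 FPKM. Its groups did not overlap, and the log2 fold change was 0.22 (SE 0.07, limma adjusted p = 0.0903). POLR1B, the second-largest subunit, had LV-NC values of 6.33, 6.12 and 7.15 FPKM and LV-SNORA28 values of 7.04, 7.29 and 7.99 FPKM (log2 fold change 0.16, limma adjusted p = 0.248). POLR1A, the largest subunit, was at 9.59, 7.69 and 10.16 FPKM and at 8.39, 8.00 and 8.77 FPKM (-0.10, limma adjusted p = 0.564). For both subunits the groups overlapped.

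POLR1C and POLR1D, which RNA polymerases I and III share, were among the lower members. POLR1C had LV-NC values of 5.5, 5.19 and 5.88 FPKM and LV-SNORA28 values of 6.11, 5.74 and 5.59 FPKM (log2 fold change 0.06, limma adjusted p = 0.610). POLR1D was at 8.10, 7.58 and 7.43 FPKM and at 7.77, 8.82 and 9.10 FPKM (0.13, limma adjusted p = 0.315). RRN3, the factor TIF-IA that makes the polymerase competent to initiate, was at 19.00, 20.42 and 23.85 FPKM and at 22.42, 21.51 and 22.99 FPKM (0.08, limma adjusted p = 0.595). The signs of POLR1C and RRN3 turned negative when the library medians or quantiles were set equal or when GC and length trends were removed. Summed, the 7 genes reached 87.0 ± 7.18 FPKM (SD, n = 3) for LV-NC and 87.5 ± 1.65 FPKM for LV-SNORA28.

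None of the 4 box C/D core genes was called, against a background of 8.91% of all genes. Fibrillarin, FBL, the enzyme that methylates ribosomal RNA, had LV-NC values of 105.78, 111.18 and 103.74 FPKM and LV-SNORA28 values of 112.45, 128.72 and 103.85 FPKM. The groups overlapped, and the log2 fold change was 0.10 (SE 0.09, limma adjusted p = 0.506). NOP56, a scaffold of the particle, was at 46.68, 52.00 and 53.51 FPKM and at 47.71, 50.74 and 50.14 FPKM. NOP58, its paralogue, was at 33.28, 39.34 and 36.72 FPKM and at 34.28, 36.79 and 35.43 FPKM.

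SNU13, the protein that binds the kink-turn of the guide RNA, had LV-NC values of 27.97, 33.05 and 36.49 FPKM and LV-SNORA28 values of 30.30, 31.29 and 30.15 FPKM. The log2 fold changes of NOP56, NOP58 and SNU13 were -0.03, -0.03 and -0.08 (0.805, 0.807 and 0.656 as limma adjusted p), and the intervals of all 4 core genes lay inside 1.5-fold in both directions. These 4 genes summed to 227 ± 11.4 FPKM (SD, n = 3) for LV-NC and 231 ± 14.9 FPKM for LV-SNORA28.

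Among the abundant nucleolar proteins, NPM1 and NOLC1 had fold changes of opposite sign and neither was called. NPM1, nucleophosmin, a chaperone of histones and ribosomal proteins, had LV-NC values of 268.21, 302.16 and 288.71 FPKM and LV-SNORA28 values of 331.77, 350.49 and 327.86 FPKM. The groups did not overlap, and the log2 fold change was 0.23 (SE 0.07, limma adjusted p = 0.0782). With quantile normalization it was past the threshold (limma adjusted p = 0.0439), and over all alternatives the adjusted p ran from 0.0439 to 0.453.

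NOLC1, Nopp140, which chaperones small nucleolar ribonucleoproteins between Cajal bodies and the nucleolus, had LV-NC values of 70.05, 91.26 and 102.95 FPKM and LV-SNORA28 values of 71.77, 66.91 and 76.77 FPKM. The LV-NC libraries differed more among themselves than the group means did, and the log2 fold change was -0.28 (SE 0.14, limma adjusted p = 0.264). Nucleolin, NCL, was at 126.08, 143.37 and 149.87 FPKM and at 133.12, 137.36 and 143.19 FPKM (-0.02, limma adjusted p = 0.916). TCOF1, treacle, which works with UBTF at ribosomal DNA, was at 11.96, 12.22 and 14.24 FPKM and at 11.23, 11.80 and 12.51 FPKM (-0.10, limma adjusted p = 0.482).

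The groups overlapped for NOLC1, NCL and TCOF1 alike. DDX21, an RNA helicase of the nucleolus, had means of 65.0 and 68.0 FPKM (limma adjusted p = 0.695).

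NPM1 has many annotated pseudogene copies, and reads that match more than 1 of them may be split. Of 94 annotated pseudogenes named after a member, 49 belong to NPM1 and 47 were above 0 FPKM in some library, 22 of them NPM1 copies. Those with a mean of at least 1 FPKM numbered 7. NPM1P27, a processed copy, had LV-NC values of 75.8, 84.48 and 81.35 FPKM and LV-SNORA28 values of 77.64, 77.4 and 73.46 FPKM (log2 fold change -0.08, limma adjusted p = 0.461), so the difference seen in the annotated NPM1 gene was not seen in this copy.

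NPM1P39 had means of 3.22 and 1.85 FPKM, without overlap (-0.58, limma adjusted p = 0.0631). NPM1P7, NPM1P6, RRN3P1 and RRN3P3 lay between 0.67 and 5.45 FPKM and were not called. BMS1P20, a transcribed copy of part of BMS1, rose from 4.08, 3.91 and 4.24 FPKM to 6.61, 8.49 and 6.83 FPKM (log2 fold change 0.70, SE 0.10, limma adjusted p = 0.0127). It was past the threshold in all 15 alternatives, including each of the 6 fits with a library left out, with a limma adjusted p from 0.0106 to 0.0477. BMS1 itself, the GTPase of the SSU processome, was at 24.0 ± 1.04 FPKM and 22.6 ± 1.24 FPKM (SD, n = 3; limma adjusted p = 0.445). How reads that match several copies were assigned is not given in the sources used here, so the values of NPM1, BMS1, RRN3 and their copies are uncertain.

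The SSU processome held the largest rise and 1 of the falls. NOL11 (ENSG00000130935; GRCh38 chromosome 17, 67717931 to 67744531, plus strand), a subunit of the UTP-A complex that acts in both transcription and early processing of the precursor, had LV-NC values of 13.60, 13.55 and 16.54 FPKM and LV-SNORA28 values of 22.13, 24.80 and 24.68 FPKM. The lowest LV-SNORA28 value lay above the highest LV-NC value. The means were 14.6 ± 1.71 and 23.9 ± 1.51 FPKM (SD, n = 3), a ratio of 1.64, and the log2 fold change was 0.68 (SE 0.10, limma adjusted p = 0.0127). NOL11 was past the threshold in 13 of 15 alternatives, where its adjusted p ran from 0.00848 to 0.0554 over all 15. The exceptions were the fits without LV-SNORA28 replicate 2 (0.0554) and without LV-SNORA28 replicate 3 (0.0548), in which the log2 fold change was 0.65 and 0.66.

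Of the other UTP-A subunits, 4 are members and none was called. UTP4 had means of 18.0 and 18.2 FPKM, UTP15 of 4.31 and 4.84 FPKM, HEATR1 of 10.3 and 11.6 FPKM, and WDR43 of 34.1 and 33.9 FPKM, with limma adjusted p-values from 0.294 to 0.955. WDR75, a further subunit that is no member, had means of 15.9 and 17.84 FPKM (log2 fold change 0.15, limma adjusted p = 0.223). Whether NOL11 differed from them was not tested.

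RRP9 (ENSG00000114767; GRCh38 chromosome 3, 51933429 to 51941904, minus strand), the protein specific to the U3 small nucleolar ribonucleoprotein, had LV-NC values of 46.57, 51.78 and 53.78 FPKM and LV-SNORA28 values of 41.44, 38.57 and 36.84 FPKM. All LV-SNORA28 values lay below all LV-NC values. RRP9 fell by 0.37 on the log2 scale (SE 0.08, limma adjusted p = 0.0366). The call was kept without LV-NC replicate 1 (0.0386) and lost without each of the other 5 libraries, and the limma adjusted p ran from 0.0259 to 0.122 over the alternatives, with 0.0906 under the replicate block.

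DDX52, a DEAD-box helicase of the early small-subunit particle, had LV-NC values of 4.34, 3.87 and 4.43 FPKM and LV-SNORA28 values of 5.13, 5.04 and 5.66 FPKM. The groups did not overlap, with a log2 fold change of 0.27 (SE 0.08, limma adjusted p = 0.0837). UTP14A, a processome subunit, had means of 13.9 and 11.54 FPKM, also without overlap (-0.25, limma adjusted p = 0.0735), and was past the threshold in 3 of 15 alternatives. NOP14 had means of 32.7 and 30.1 FPKM without overlap (-0.11, limma adjusted p = 0.316).

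The groups overlapped in UTP18, UTP20, PWP2, NOL6, BMS1, DDX10 and DDX47, which had log2 fold changes from -0.11 (DDX47) to 0.14 (UTP18). Of the 16 processome members 1 rose, 1 fell and 14 did not pass the threshold. The 2 called are 12.5%, against 8.91% of all genes. The summed level of the 16 was 271 ± 17.3 FPKM (SD, n = 3) for LV-NC and 266 ± 5.03 FPKM for LV-SNORA28.

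**Figure D4:**
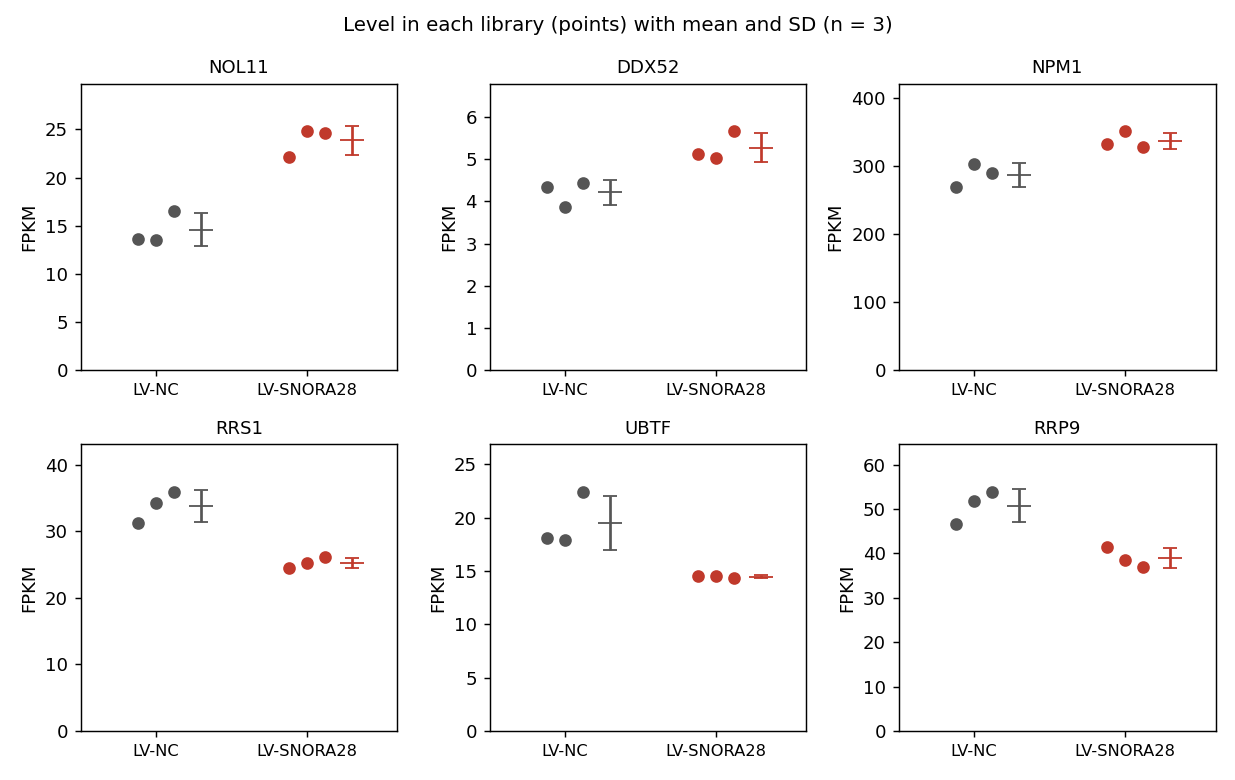
FPKM (y axis, from 0) of 6 members in each library (points) of LV-NC and LV-SNORA28, with the mean and SD of 3 libraries beside them. The groups do not overlap in any of the 6; NOL11, RRS1, UBTF and RRP9 were past the threshold, while DDX52 and NPM1 were not.

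No late 40S factor was called, against a background of 8.91% of all genes. These proteins act on the small subunit after it leaves the processome. RRP12, an export factor, had means of 10.97 and 10.02 FPKM (log2 fold change -0.12). NOB1, the nuclease that makes the final cut of 18S rRNA, had means of 56.6 and 53.1 FPKM (-0.09). LTV1, TSR1 and BYSL had log2 fold changes of -0.02, 0.01 and 0.07. The limma adjusted p-values of the 5 ran from 0.368 to 0.947, and all their intervals lay inside 1.5-fold.

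Among the 19 pre-60S factors 1 fell and 18 did not pass the threshold. The 1 called is 5.26%, against 8.91% of all genes. RRS1 (ENSG00000179041; chromosome 8), which together with RPF2 brings the 5S ribonucleoprotein into the large subunit, had LV-NC values of 31.19, 34.34 and 35.90 FPKM and LV-SNORA28 values of 24.56, 25.24 and 26.09 FPKM. The groups did not overlap. RRS1 fell by 0.40 on the log2 scale (SE 0.07, limma adjusted p = 0.0224). Its call was kept with the replicate block (0.0443) and without LV-NC replicate 1 (0.0262), and was lost without each of the other 5 libraries, with a limma adjusted p between 0.0127 and 0.0837 over the alternatives.

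NIP7, which acts in late large-subunit processing, had the lowest log2 fold change of all members, -0.41 (SE 0.20), without reaching the threshold (limma adjusted p = 0.235). It had LV-NC values of 9.38, 10.26 and 9.88 FPKM and LV-SNORA28 values of 8.40, 8.88 and 4.85 FPKM. The groups did not overlap, but LV-SNORA28 replicate 3 stood apart from the other two libraries of its group. Without that library the log2 fold change was -0.17.

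The PeBoW complex, formed by PES1, BOP1 and WDR12, is needed for the large-subunit rRNA to mature. PES1 had means of 38.0 and 32.4 FPKM without overlap (log2 fold change -0.22, limma adjusted p = 0.134), BOP1 of 40.1 and 39.1 FPKM (-0.04, 0.764), and WDR12 of 7.80 and 8.69 FPKM without overlap (0.14, 0.254). The 3 partners thus had no common direction. GRWD1, a chaperone of a large-subunit ribosomal protein, had means of 11.3 and 9.39 FPKM without overlap (-0.24, limma adjusted p = 0.0993) and was past the threshold in 1 of 15 alternatives.

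Other pre-60S members with an unadjusted p below 0.05 had positive fold changes. They were GNL3, the nucleolar GTPase nucleostemin, with means of 51.6 and 57.4 FPKM (log2 fold change 0.15, limma adjusted p = 0.160), the helicase DDX18 with 12.3 and 14.3 FPKM (0.19, 0.125), and RRP1B with 14.1 and 16.7 FPKM (0.22, 0.171). DDX27, DDX56, EBNA1BP2, GNL2, MRTO4, NOL9, NOP2, NOP16 and RRP1 had log2 fold changes from -0.12 (NOP16) to 0.11 (DDX56). The summed level of the 19 was 386 ± 25.4 FPKM (SD, n = 3) for LV-NC and 372 ± 3.14 FPKM for LV-SNORA28.

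In 3 members, picked after their values were seen, a protein-coding gene annotated on the same strand overlaps the locus and also varied. Such overlaps were also annotated for UTP4, GRWD1, NOP2 and RRS1, which were not examined in this way. PPAN, a pre-60S factor, had LV-NC values of 10.45, 10.61 and 13.04 FPKM and LV-SNORA28 values of 13.53, 7.52 and 7.08 FPKM (log2 fold change -0.30, limma adjusted p = 0.445). The readthrough gene PPAN-P2RY11 was at 7.63, 1.91 and 0 FPKM and at 0.17, 8.31 and 7.62 FPKM. Where the readthrough gene was high in LV-SNORA28, PPAN was low. In LV-NC replicates 1 and 2, however, PPAN was alike while the readthrough gene differed. The sums of both were 14.5 ± 3.07 FPKM (SD, n = 3) for LV-NC and 14.7 ± 1.07 FPKM for LV-SNORA28. In LV-NC the sum varied more than PPAN alone (SD 1.45 FPKM).

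DDX47, a helicase of the processome, was at 14.22, 15.71 and 9.06 FPKM in LV-SNORA28, and its neighbour APOLD1 was at 0.74, 1.30 and 6.31 FPKM in the same libraries. Their sums were 15.3 ± 1.06 FPKM (SD, n = 3) for LV-NC and 15.8 ± 1.09 FPKM for LV-SNORA28. The low DDX47 value in LV-SNORA28 replicate 3 thus came with a high value of the overlapping gene. LTV1 shares its locus with ENSG00000257065, whose values ran from 0.47 to 5.84 FPKM in LV-NC and from 0.59 to 5.36 FPKM in LV-SNORA28. A sum of 2 FPKM values is only a rough total, since each is divided by its own transcript length.

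**Figure D5:**
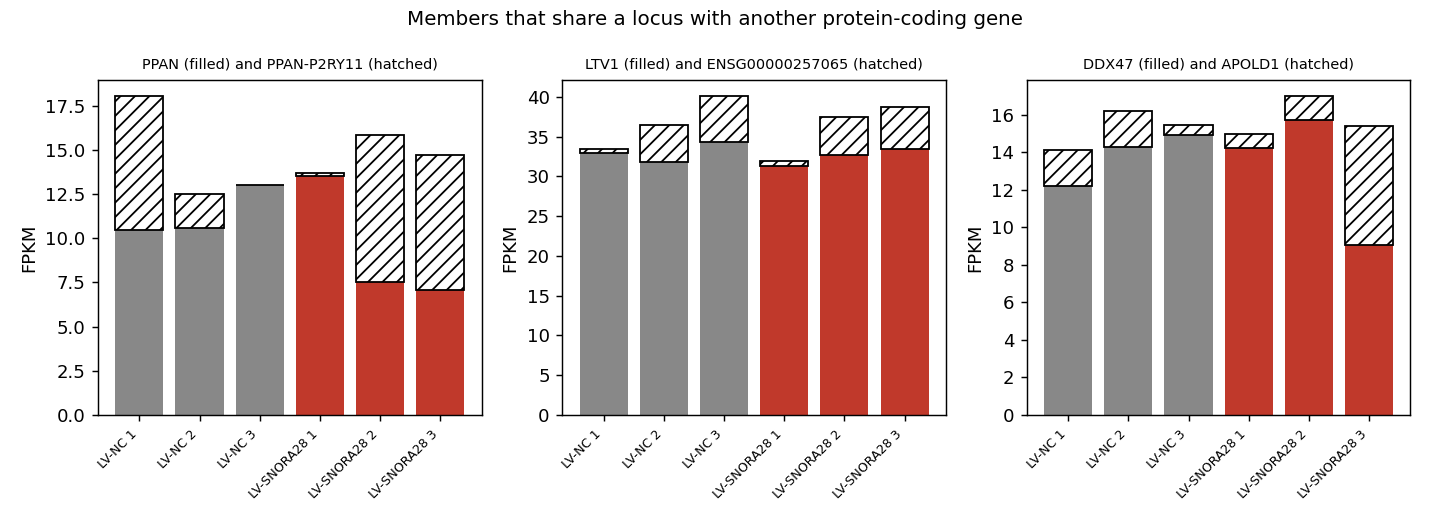
FPKM (y axis, from 0) in each of the 6 libraries (x axis) for PPAN, LTV1 and DDX47 (filled) stacked with the overlapping gene of the same strand (hatched). In LV-SNORA28 replicates 2 and 3 about as much of the PPAN stack is hatched as filled, and in LV-NC replicate 1 its hatched part is 7.63 FPKM. In LV-SNORA28 replicate 3 the hatched part of DDX47 is 6.31 FPKM.

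Several members are also hosts of small nucleolar RNAs. The annotation places 27 small nucleolar or Cajal body RNA genes inside 9 of the 56 members. Of these, 7 had a mean of at least 1 FPKM, with a highest mean of 4.16 FPKM, and poly(A) selection recovers such RNAs poorly, so their cellular levels cannot be read from these libraries.

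The rest of the pathway was read from further lists of 134 genes, of which 133 passed the filter. In these lists 5 genes (3.76%) were called, 4 higher and 1 lower, against the background of 8.91%. Among 39 other SSU processome and 40S genes RRP7A, a UTP-C subunit, rose from 7.23, 7.47 and 8.06 FPKM to 9.40, 9.47 and 9.30 FPKM (log2 fold change 0.28, limma adjusted p = 0.0475). The next in order, EMG1 (0.27) and UTP6 (0.37), had limma adjusted p-values of 0.0670 and 0.0694.

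Among 44 other 60S genes the helicase DDX54 fell from 22.98, 25.50 and 28.42 FPKM to 19.41, 19.33 and 20.13 FPKM (-0.36, limma adjusted p = 0.0475). SBDS (0.32) and NOC2L (0.26) were at limma adjusted p-values of 0.0537 and 0.0611. In the list of 27 rRNA exonucleases and RNase MRP subunits POP1, the largest protein of RNase MRP and RNase P, rose from 3.73, 4.44 and 4.66 FPKM to 6, 6.12 and 7.42 FPKM (0.51, limma adjusted p = 0.0376). RPP30 (0.42) and RPP40 (0.26), which belong to the same enzymes, were at limma adjusted p-values of 0.0501 and 0.0550.

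The list of 14 other RNA polymerase I genes also holds subunits shared with other RNA polymerases (POLR2E, POLR2F, POLR2H, POLR2K and POLR2L) and the chromatin factor BAZ2A. All 14 had a positive log2 fold change in this fit (median 0.12, against 0.09 over all genes tested). With quantile normalization, equal library medians or GC and length trends removed, 8 of 14 did. One was called: TAF1B, a subunit of the promoter selectivity factor SL1 that works beside UBTF, rose from 4.32, 4.10 and 4.14 FPKM to 5.61, 5.6 and 5.46 FPKM (0.34, limma adjusted p = 0.0257). TAF1D (0.26) and POLR2E (0.22) were at limma adjusted p-values of 0.0626 and 0.124. Of 10 regulators of ribosome production, 9 were tested. MDM2, the ubiquitin ligase of p53 that free ribosomal proteins inhibit, rose from 10.39, 9.40 and 9.86 FPKM to 12.95, 13.43 and 15.51 FPKM (0.46, limma adjusted p = 0.0263). MYC had the lowest log2 fold change of the 9, -0.91 (SE 0.73, limma adjusted p = 0.468), which was 0.028 without LV-NC replicate 3 (limma adjusted p = 0.864, with a range from 0.325 to 0.864 over the alternatives). MAX (-0.47) and MXD4 (0.29) did not pass the threshold, with limma adjusted p-values of 0.0938 and 0.120. None of these 5 calls was as stable as that of NOL11: over the alternatives RRP7A was past the threshold in 2 of 15, DDX54 in 6 of 15, POP1 in 5 of 15, TAF1B in 4 of 14 and MDM2 in 7 of 15, with no change of sign. Leaving out 1 library left between 0 and 4 calls in these lists. There were 4 only without LV-NC replicate 1, and 0 without LV-NC replicate 2 or LV-SNORA28 replicate 2. In the same fits all genes called numbered 279 to 628, against 1076 with every library.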

How the data were processed

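The authors deposited, for each of the 6 libraries, a table of Ensembl gene identifiers with FPKM values. Per the labels, RNA was poly(A)-selected, stranded by dUTP and read as paired ends. The submitters' processing notes name cutadapt 1.9, HISAT2 2.2.1, StringTie 2.1.6, DESeq2, edgeR and the build hg38, without their roles. The annotation release, filters, strand setting and mapped totals are not given in the sources used here.

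Symbols, positions and overlaps came from GENCODE release 44, which named 60401 of 60612 genes, and promoters from RefSeq on GRCh38.p14. Groups followed the sample titles. Values were transformed to log2(FPKM + 1), which understates changes of low genes, and limma 3.58.1 in R 4.3.3 (lmFit, then eBayes with trend) was run on the 12076 genes averaging 1 FPKM or more. P-values are two-sided and Benjamini-Hochberg adjusted over all genes tested. An exact permutation test of 3 against 3 libraries cannot go below p = 0.1 and was not used. The fit was also run on simulated data with noise drawn independently for each gene and library. These held no shift shared by a library, so they cannot show how the fit handles the mitochondrial difference. Tables were joined in Python 3.11.15. No count model was run, because the files held FPKM.

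The members and the lists were chosen with earlier results of these data known. Values in every library are given for called members, the box C/D core, NCL, NPM1, NOLC1, TCOF1, the RNA polymerase I group and the 3 members with the highest and the 3 with the lowest log2 fold change. From each other list, up to 3 genes with the lowest adjusted p are named, with values in every library where they were called. PPAN, LTV1 and DDX47 were picked for their shared loci. No pair of libraries was identical: at least 26342 genes differed. Over all genes tested, same-numbered libraries showed little common deviation (correlations of -0.0441, 0.0914 and 0.00983). This cannot tell whether same-numbered libraries were prepared together, and the sample titles do not say. Alternatives were other scalings, filters, a pseudocount of 0.1, no trend, removal of GC and length trends, the replicate block and each library left out.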

Additional observations from a re-analysis of the deposited data

How the results depend on the processing

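Of 56 members, 4 were called. The number was 7 with quantile normalization (2 higher, 5 lower), 1 without a filter on low values and 2 with the replicate block. It was 1 at a fold change above 1.5 with an unadjusted p below 0.05, and between 0 and 3 when a library was left out. All genes called numbered 1076, against 397 without a filter, 510 with the replicate block and 279 to 628 with any library left out. The split into 822 higher and 254 lower became 451 and 375 with quantile normalization, 352 and 366 with equal medians, 505 and 449 with GC and length trends removed, and 615 and 264 with nuclear FPKM sums set equal. The median of the members was -0.0123, against -0.0874 with quantile normalization, -0.112 with equal medians, -0.1 with GC and length trends removed and -0.0677 to 0.0327 with a library left out. In the other pathway lists 5 calls became 3 with quantile normalization, 2 with equal medians, 0 without a filter, 8 at a mean of at least 5 FPKM, 2 with GC and length trends removed, 1 with the replicate block and 0 to 4 with a library left out. Some of these settings also change the number of libraries or of genes tested, and the cause was not tested in any case.

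Signs turned for FBL with equal medians (-0.000107), NCL with quantile normalization (0.00327), POLR1C (-0.0359 with quantile normalization, -0.0362 with equal medians, -0.00847 with GC and length trends removed) and RRN3 (-0.00306, -0.0168 and -0.0687 in the same order). With a library left out, NCL ran from -0.0882 to 0.0356, NOP56 from -0.0896 to 0.00696, NOP58 from -0.0964 to 0.021 and SNU13 from -0.178 to 0.00772. Of the 36 members not named in full, 2 were called in some alternative and 18 changed sign in one. Whether the replicate numbers pair the libraries is not known, and under the block UBTF and RRP9 were no longer past the threshold (limma adjusted p 0.0838 and 0.0906). Unknown depth limits what low values can show.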

Other observations

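The 7-letter word GTGTCAC, part of the sequence listed for the LV-NC control and singled out after earlier results of these data were seen, occurs in the annotated 3′ UTR of 9.69% of the 10557 tested genes that have one. Among these 1023 genes, 15.4% were called higher in LV-SNORA28, against 6.44% of those without it. The sets were not matched for UTR length or GC, and the difference between them was not tested. It occurs in 3 of 56 members (5.36%), POLR1A, POLR1B and DDX18, none of which was called, and NOL11 does not hold it.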
